A study of Mus musculus with 6 samples.

Results

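A set of 10 genes of ceramide breakdown and sphingosine-1-phosphate (S1P) signalling was followed in mouse haematopoietic stem cells (HSCs). They are the ceramidase genes Acer1, Acer2, Acer3 and Asah1, the sphingosine kinase genes Sphk1 and Sphk2, the lyase gene Sgpl1, the phosphatase gene Sgpp1 and the receptor genes S1pr1 and S1pr2. The list was drawn up because Acer2 read higher in the knockout, so the difference of Acer2 between the genotypes chose the list and is given as a description. All 10 of the 10 genes were found among the 22180 genes with a row of their own on the array. The series compared HSCs of wild type mice with HSCs of Chrm1-/- mice, which lack the muscarinic acetylcholine receptor type 1, and concerns the part of that receptor in mobilization through glucocorticoids. Both groups were of the strain C57Bl/6, were taken at steady state with no agent given, and were sorted from bone marrow as lineage-negative, Sca1+, cKit+ and Flt3- cells. Each genotype gave 3 arrays. The labels give neither age nor the number of mice behind an array, nor whether replicates are separate mice, so errors between arrays may be technical.

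Ceramidases cleave ceramide into sphingosine and a fatty acid. Sphingosine kinases then phosphorylate sphingosine to S1P, which the phosphatase turns back into sphingosine and the lyase breaks down for good. S1P is plentiful in blood and scarce inside tissues, and cells that carry S1pr1 follow this gradient out of lymphoid organs and marrow. In blood-forming tissue the pathway is therefore known for the egress of lymphocytes and of stem and progenitor cells, and ceramide itself is known as a lipid of stress and cell death.

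Before the values, the sequence upstream of Acer2 and Acer3 is shown, because these 2 alkaline ceramidase genes had the largest differences of the list, in opposite directions. They were picked after their values were seen. The stretches are from RefSeq on GRCm38.p6 and read 5′ to 3′ on the strand of the gene. Capitals mark the GC box GGGCGG, a letter string bound by Sp1-family factors, on either strand. For Acer2 the stretch chr4:86874164-86874347, plus strand, ends at the last base before the annotated gene. For Acer3 the stretch chr7:98309543-98309792, minus strand, ends at the base before one of the annotated starts. That start lies inside the annotated gene, and the window of a further Acer3 start is described without its sequence.
Acer2: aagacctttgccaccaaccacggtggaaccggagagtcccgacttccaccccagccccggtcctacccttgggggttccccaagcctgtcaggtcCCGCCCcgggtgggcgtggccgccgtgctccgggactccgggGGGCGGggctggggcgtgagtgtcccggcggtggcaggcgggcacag
Acer3: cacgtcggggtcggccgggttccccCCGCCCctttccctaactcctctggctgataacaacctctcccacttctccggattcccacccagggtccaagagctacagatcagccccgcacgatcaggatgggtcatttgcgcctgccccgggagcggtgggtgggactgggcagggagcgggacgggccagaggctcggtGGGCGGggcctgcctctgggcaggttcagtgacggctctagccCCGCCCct

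Over the 250 bases before the annotated start, 73.2% of bases were G or C for Acer2 and 68.4% for Acer3, against a median of 52.4% over all 32851 windows of that length. For Acer2 this window runs to chr4:86874413, past the 184 printed bases and into the annotated gene. Acer2 held 2 GC boxes and Acer3 held 3, and 32.7% of all windows held at least 1. The window of the other Acer3 start, which lies outside the annotated gene, differed, with 46.8% G or C and 0 GC boxes. The glucocorticoid half-site AGAACA was searched on both strands because the study concerns glucocorticoids. It occurred 0 times in these 3 windows, while 16.1% of all windows held it. The full element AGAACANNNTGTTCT, which contains the half-site, was in 3 of the 32851 windows. Of the 10 genes, 8 had windows in the table, and the half-site was present in the window of Sgpp1 (1 match) and of Acer1 (2 matches). A match here is a string of letters and not a bound site.

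Signals are deposited log2 values, on which a difference of 1 is a doubling. Differences are Chrm1-/- less wild type, from a limma fit over the 11094 genes whose mean signal reached the median of all genes, 6.77. Over these genes the median standard error of a difference was 0.17. Array medians ran from 6.49 to 6.57, and the number of arrays limits the precision. Wild type replicate 3 was least like its group, with a mean correlation of 0.918, and also least like the other group, at 0.922. To 3 decimals, no array had a higher mean correlation with its own group than with the other group. Chrm1 itself read 7.45, 7.44 and 7.67 on the wild type arrays and 8.16, 7.52 and 7.58 on the Chrm1-/- arrays, and since neither the deleted part of the gene nor the part its probes cover is stated, this checks nothing about the labels. The stem cell genes Kit and Cd34 read 10.79 or more on each array, and of 9 HSC markers found on the array all 9 passed the signal filter. Procr, a surface receptor of HSCs, differed by -0.25 ± 0.10 (SE). It read 8.40, 8.45 and 8.50 in wild type and 8.16, 8.19 and 8.24 in Chrm1-/-, with no overlap. Procr was the 1 of the 9 HSC markers with an unadjusted p under 0.05 in limma, where 2.99% of all tested genes had one. It did not pass after adjustment. Cd68, a lysosomal protein of macrophages, read lower, with a difference of -1.07 ± 0.39 (SE), and Ly86 of the same marker list differed by 0.51 ± 0.44 (SE); the mean of the 6 macrophage markers ran from 7.08 to 7.59 in wild type and from 7.06 to 7.43 in Chrm1-/-. Cd68 was the 1 gene with an unadjusted p under 0.05 in limma among 22 tested markers of 7 other cell types. Beside the 2.99% of all tested genes, nothing is read from this count, and Cd68 did not pass after adjustment. The means of erythroid markers ran from 8.34 to 8.57 in wild type and from 8.31 to 8.66 in Chrm1-/-, those of megakaryocyte markers from 7.62 to 7.69 and from 7.35 to 7.71, and those of granulocyte markers from 7.45 to 7.66 and from 7.31 to 7.51. These means can hide changes in single markers. Pf4, a megakaryocyte marker, read 9.54, 9.46 and 9.33 in wild type and 8.20, 9.44 and 8.06 in Chrm1-/-. The 4 tested granulocyte markers all read lower, with differences from -0.44 to -0.07, where 49.2% of all tested genes were lower. Of the 5 tested erythroid markers 3 were higher and 2 lower. The part of other cells in the results below was not tested.

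Across the list, 9 of the 10 genes passed the filter and Acer1 did not. Of these 9, 2 had an unadjusted p under 0.05 in limma, Acer2 higher and Acer3 lower, where 2.99% of all tested genes had one. Acer3 did not stay under that level without wild type replicate 1 or 2 or without Chrm1-/- replicate 1 or 2, and S1pr1 came under it without wild type replicate 3. The groups did not overlap for 1 of the 9, Acer2, where 5.79% of all tested genes showed no overlap. After Benjamini-Hochberg adjustment over all tested genes 0 of the 9 passed, as did 0% of all tested genes (332 of 11094 at an unadjusted p under 0.05). Nothing is read from these counts, since the comparison that gave them also chose the list. The median difference of the 9 was 0.00, and that of all genes tested was also 0.00.

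**Figure D1:**
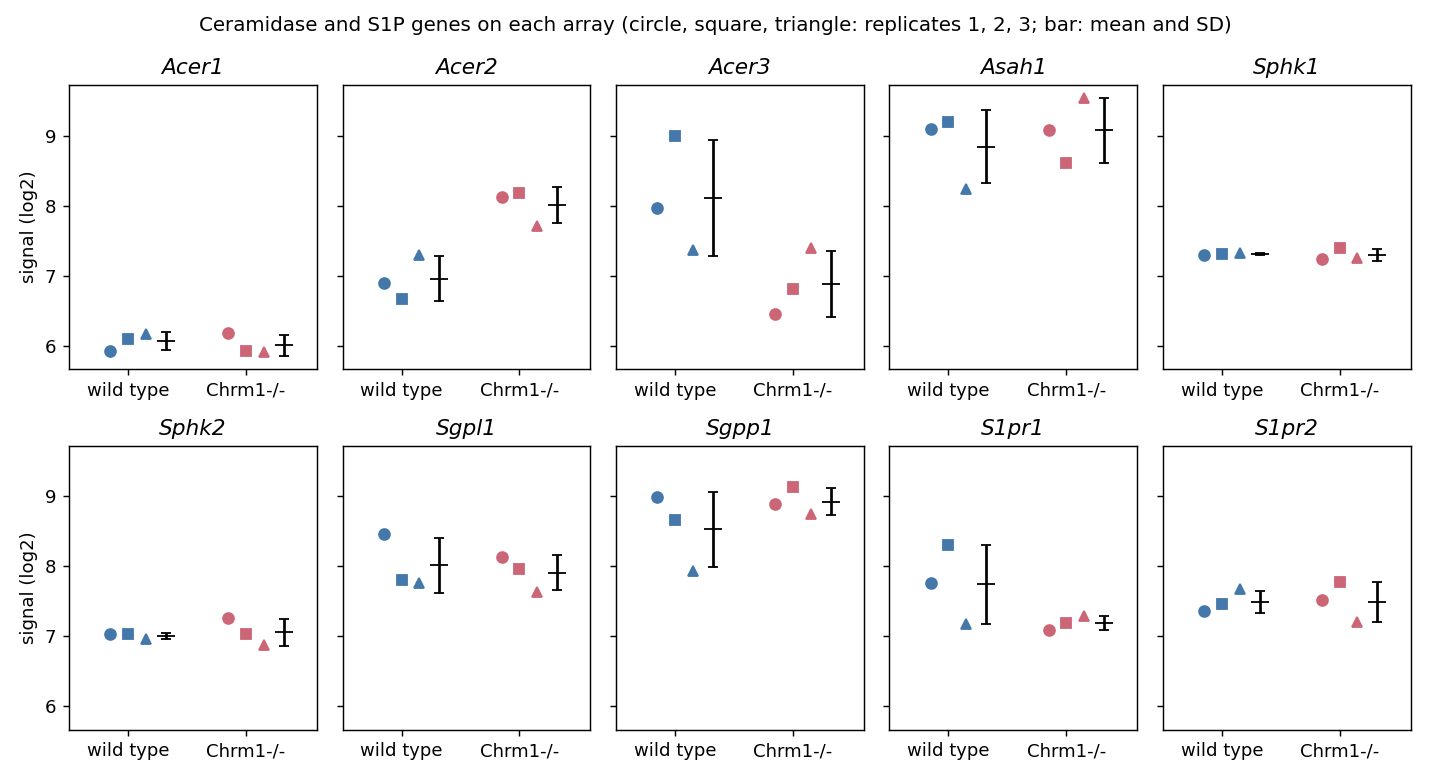
Log2 signal of each of the 10 genes on each array, with wild type arrays in blue and Chrm1-/- arrays in red, replicates 1, 2 and 3 as circle, square and triangle, and bars for the mean and SD of 3 arrays. The Acer2 points of the genotypes are apart, those of Acer3 meet at 7.36 and 7.39, and those of Sphk1 lie between 7.24 and 7.40.

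Among the ceramidases, Acer2 read higher and Acer3 lower in Chrm1-/- HSCs. Acer2 encodes the alkaline ceramidase of the Golgi apparatus. Its signal was 6.89, 6.67 and 7.30 on the wild type arrays and 8.13, 8.18 and 7.71 on the Chrm1-/- arrays. Each Chrm1-/- array lay above each wild type array, and the nearest values were wild type replicate 3 and Chrm1-/- replicate 3. The means were 6.95 ± 0.32 (SD, n = 3) and 8.01 ± 0.26 (SD, n = 3), a difference of 1.05 ± 0.21 (SE), or 2.08-fold. In arrays of sorted cells such a difference may be more RNA per cell or more cells that hold the transcript, and these cannot be told apart.

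Acer3 encodes an alkaline ceramidase of the endoplasmic reticulum and Golgi that prefers unsaturated long-chain substrates. Its signal was 7.96, 9.0 and 7.36 in wild type and 6.45, 6.81 and 7.39 in Chrm1-/-. The groups overlapped by a single pair, as Chrm1-/- replicate 3 lay just above wild type replicate 3, so 1 of 9 cross-group pairs had the knockout higher. The means were 8.11 ± 0.83 (SD, n = 3) and 6.88 ± 0.47 (SD, n = 3), a difference of -1.22 ± 0.45 (SE). Without wild type replicate 2, the array with the highest Acer3 signal, the difference was -0.78 ± 0.34 (SE), and without wild type replicate 3 it was -1.60 ± 0.42 (SE).

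With each gene set against its own mean over the 6 arrays, the centred Acer2 value less the centred Acer3 value was -1.06, -2.32 and -0.05 in wild type. In Chrm1-/- it was 1.70, 1.38 and 0.34. All 3 knockout arrays were positive and all 3 wild type arrays negative, with replicate 3 nearest to 0 in both groups. Since Acer2 chose the list and Acer3 was paired with it for its opposite direction, this split follows from the choice and is a description only.

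The remaining ceramidase genes lay within the spread of the arrays. Asah1, the acid ceramidase of the lysosome, read 9.09, 9.19 and 8.24 in wild type and 9.08, 8.61 and 9.54 in Chrm1-/-, a difference of 0.24 ± 0.34 (SE) with a 95% interval from -0.58 to 1.06. The lowest value was wild type replicate 3, and without that array the difference was -0.06. Without Chrm1-/- replicate 3 it was 0.01. Acer1, the alkaline ceramidase known from the epidermis, stayed below the signal filter. Its 6 values lay between 5.91 and 6.18, and the groups overlapped.

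The kinases that make S1P hardly varied. Sphk1, the mainly cytosolic sphingosine kinase, read 7.29, 7.31 and 7.32 in wild type and 7.24, 7.40 and 7.25 in Chrm1-/-. Its difference was -0.01 ± 0.10 (SE), with a 95% interval from -0.26 to 0.24. The wild type values lay inside the range of the knockout values. Sphk2, the kinase also found in the nucleus and mitochondria, read 7.03, 7.03 and 6.96 in wild type and 7.26, 7.03 and 6.88 in Chrm1-/-. Its difference was 0.05 ± 0.13 (SE), with an interval from -0.26 to 0.36. The SD within groups, pooled over the genotypes, was 0.06 for Sphk1 and 0.14 for Sphk2. It was 0.68 for Acer3, the most variable of the 10, and its median over all tested genes was 0.22.

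The genes that remove S1P did not separate the genotypes either. Sgpl1 encodes the lyase that ends the pathway. It read 8.47, 7.81 and 7.76 in wild type and 8.13, 7.96 and 7.64 in Chrm1-/-, a difference of -0.10 ± 0.24 (SE). The highest value was wild type replicate 1, and without it the difference was 0.12.

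Sgpp1 encodes the S1P phosphatase of the endoplasmic reticulum and was the one member with 2 rows on the array. The row of higher signal, used here, read 8.99, 8.66 and 7.94 in wild type and 8.89, 9.13 and 8.75 in Chrm1-/-, a difference of 0.39 ± 0.28 (SE). Its other row read 8.54, 8.34 and 7.51 in wild type and 7.89, 8.0 and 7.20 in Chrm1-/-, a difference of -0.43 ± 0.34 (SE). Both rows were lowest in wild type replicate 3 among the wild type arrays and in replicate 3 among the knockout arrays, yet their differences between genotypes had opposite signs. The gap between the rows was 0.45, 0.32 and 0.43 on the wild type arrays and 1.0, 1.13 and 1.55 on the Chrm1-/- arrays. The means of the gap were 0.40 ± 0.07 (SD, n = 3) and 1.23 ± 0.29 (SD, n = 3), with no overlap. This gap was singled out after its values were seen, and 8.91% of the 494 genes with 2 rows past the signal filter had gaps without overlap. Which parts of Sgpp1 these rows cover is not stated.

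**Figure D2:**
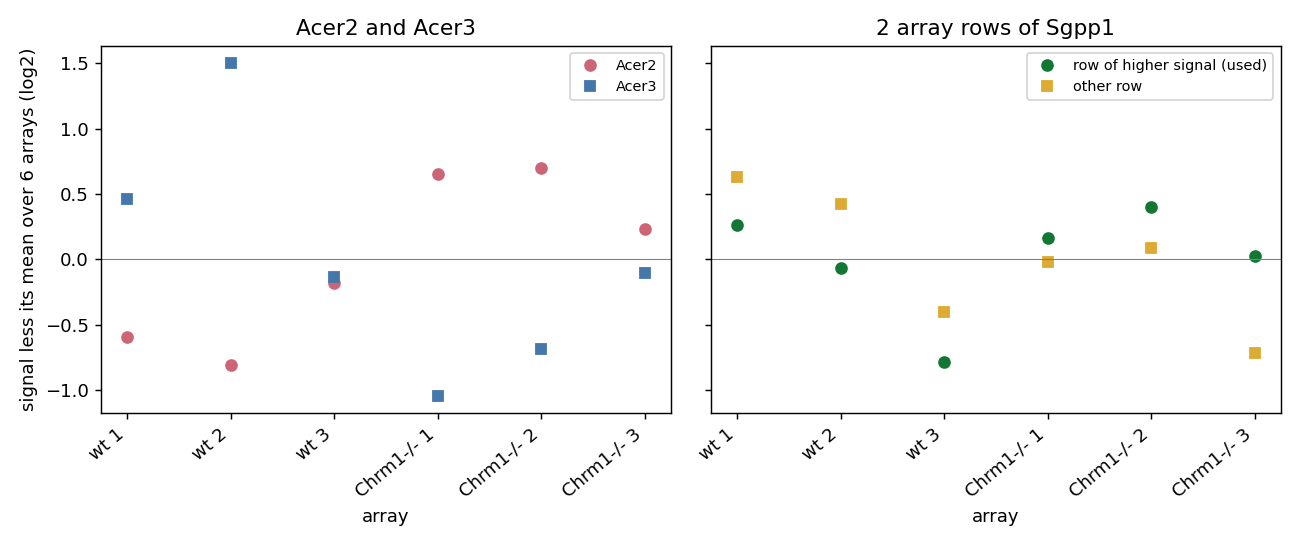
Log2 signal less its mean over the 6 arrays, for Acer2 and Acer3 (left) and for the 2 array rows of Sgpp1 (right), with each array on the x axis. Acer2 is below 0 on the 3 wild type arrays and above 0 on the 3 Chrm1-/- arrays, Acer3 is highest on wild type replicate 2, and the Sgpp1 rows swap their order between the genotypes.

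Of the receptors, S1pr1 leaned lower in Chrm1-/- HSCs and S1pr2 had the same mean in both groups. S1pr1, the receptor that draws cells toward S1P in blood, read 7.76, 8.30 and 7.17 in wild type and 7.09, 7.19 and 7.29 in Chrm1-/-. The knockout arrays lay close together, and wild type replicate 3 lay among them. The means were 7.74 ± 0.57 (SD, n = 3) and 7.19 ± 0.10 (SD, n = 3), a difference of -0.55 ± 0.28 (SE) with a 95% interval from -1.24 to 0.13. Its size depended on single wild type arrays. Without wild type replicate 2 the difference was -0.28 ± 0.20 (SE), and without wild type replicate 3 it was -0.84 ± 0.19 (SE). Lymphocytes and endothelium also carry S1pr1. The mean of 6 T and NK cell markers ran from 6.66 to 6.90 in wild type and from 6.58 to 6.92 in Chrm1-/-, that of 5 B cell markers from 6.16 to 6.68 and from 6.19 to 6.57, and that of 7 endothelial and stromal markers from 6.93 to 7.13 and from 6.96 to 7.10. Only 1, 1 and 4 of these markers passed the signal filter, so the means can hide changes. Below the filter, Cd79a read 7.77 in wild type replicate 3 and 7.25 in Chrm1-/- replicate 1, and 6.05 to 6.40 elsewhere. Cd3g read 7.16 in Chrm1-/- replicate 1 and 4.87 and 4.95 on the other knockout arrays. The part of such cells in S1pr1 was not tested.

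S1pr2, a receptor that can oppose migration toward S1P, read 7.36, 7.46 and 7.67 in wild type and 7.52, 7.77 and 7.20 in Chrm1-/-. Both means were 7.50 and the 95% interval of the difference ran from -0.43 to 0.43. The lowest and the highest of the 6 values were both knockout arrays.

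Single arrays carried much of the spread within the list. Wild type replicate 3 was the lowest of the wild type arrays for 6 of the 10 genes and the highest for the other 4. Over all tested genes the same array was lowest for 35.6% and highest for 34.4%. Chrm1-/- replicate 3 was the lowest of its group for 6 of the 10 genes and the highest for 3, against 30% and 32% of all tested genes. On leaving out each array in turn, the sign of the difference stayed the same for Acer1, Acer3, Sgpp1 and S1pr1, and for Acer2, where groups that do not overlap allow no other. The Acer2 difference ran from 0.91 to 1.23 over these 6 fits.

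**Figure D3:**
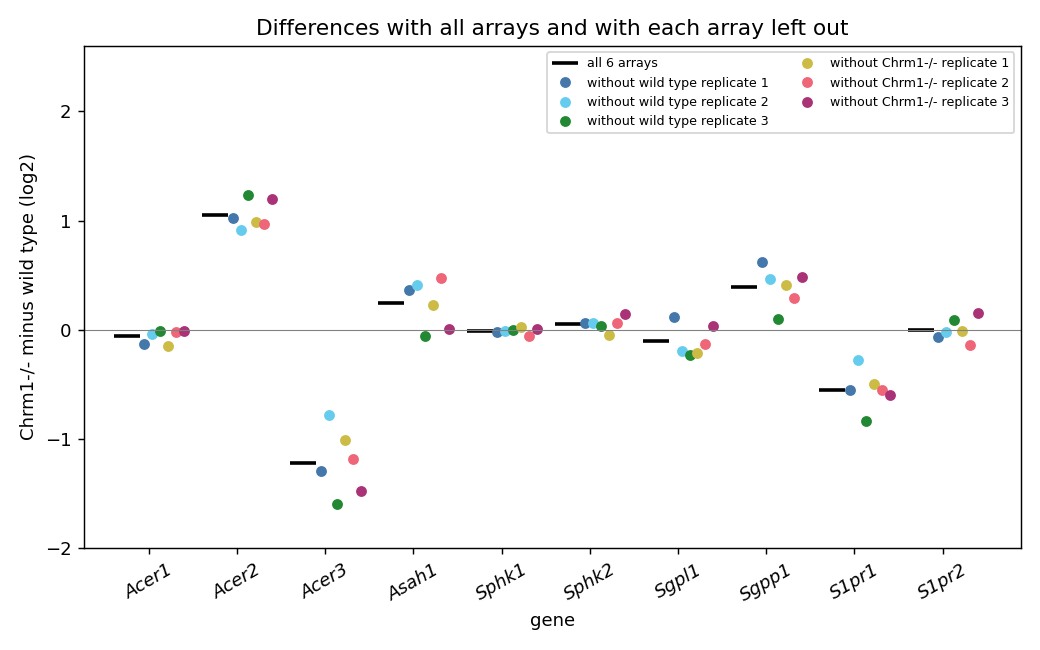
Chrm1-/- minus wild type (log2) for each of the 10 genes, with all 6 arrays (black bar) and with each array left out in turn (coloured points). Acer2 stays between 0.91 and 1.23 and Acer3 between -1.60 and -0.78, while the points of Asah1 and Sgpl1 fall on both sides of 0.

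The rest of the sphingolipid pathway was 62 further genes listed by function, of which 42 were tested. Of the 42, 0 had an unadjusted p under 0.05 in limma, where 2.99% of all tested genes had one. After adjustment 0 passed. Other settings gave up to 3 at the unadjusted level. The 3 came without wild type replicate 3, where 4.71% of all tested genes were at that level. With so few genes, nothing is read from these counts. Means were higher in Chrm1-/- for 19 of the 42 and lower for 22, where 50% of all tested genes were higher and 49.2% lower, and the median difference was -0.02 beside 0.00 over all genes tested. The groups did not overlap for 2 of the 42, or 4.76%, below the 5.79% of all tested genes. Those 2, Kdsr and Gba2, were both lower in the knockout.

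Genes for building ceramide from scratch, with the Ormdl genes that restrain this route, were tested for 10 of 17, with differences from -0.32 to 0.62. The highest was that of Ormdl2, a restraining gene, at 0.62 ± 0.46 (SE). The smallest unadjusted p was that of Kdsr, the reductase of the second step of synthesis. Kdsr read 8.27, 8.56 and 8.19 in wild type and 7.92, 8.16 and 7.98 in Chrm1-/-, a difference of -0.32 ± 0.14 (SE). The knockout arrays lay just below the wild type arrays. Cers2, a ceramide synthase for very long chains, differed by -0.27 ± 0.14 (SE) in the row used and by 0.30 ± 0.45 (SE) in its other row. Sptlc2, a subunit of the serine palmitoyltransferase that starts the route, differed by 0.00 ± 0.20 (SE).

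Genes of sphingomyelin turnover were tested for 8 of 11, and their median difference was 0.04. Smpd1, the acid sphingomyelinase that releases ceramide in lysosomes, had the smallest unadjusted p among them. It read 8.32, 7.90 and 8.88 in wild type and 7.99, 7.90 and 7.28 in Chrm1-/-, a difference of -0.64 ± 0.30 (SE) with overlapping groups. Without wild type replicate 3 it was -0.39, and without Chrm1-/- replicate 3 it was -0.42. Its other row differed by -0.08 ± 0.54 (SE).

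Glycosphingolipid genes were tested for 10 of 15 and had the lowest median difference of the functional groups, -0.20, with 6 lower and 4 higher. Psap encodes the precursor of the saposins, which help lysosomal enzymes reach their lipids. It read 9.70, 10.48 and 10.90 in wild type and 9.66, 9.86 and 9.23 in Chrm1-/-, a difference of -0.78 ± 0.33 (SE). Wild type replicate 1 lay among the knockout arrays. Without it the difference was -1.11, and without wild type replicate 3 it was -0.51. Gba2, the glucosylceramidase outside lysosomes, read 7.86, 8.97 and 7.96 in wild type and 7.70, 7.82 and 7.68 in Chrm1-/-. Its difference of -0.53 ± 0.30 (SE) leaned on wild type replicate 2, and without that array it was -0.18. Ugcg, the enzyme that turns ceramide into glucosylceramide, had the highest difference of the 42, 0.90 ± 0.45 (SE). Its wild type arrays read 9.25, 8.85 and 7.78 and its knockout arrays 10.20, 9.22 and 9.16. The difference was 0.48 without wild type replicate 3 and 0.56 without Chrm1-/- replicate 1.

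Of the 5 genes for ceramide transport and phosphorylation and for the neutral ceramidase, all were tested. Asah2, the neutral ceramidase, differed by 0.61 ± 0.37 (SE), and Chrm1-/- replicate 3 at 10.29 stood above the other knockout arrays at 9.08 and 8.86. Without that array the difference was 0.17. The ceramide kinase gene Cerk differed by -0.01 ± 0.18 (SE) and the ceramide transfer protein gene Cert1 by 0.05 ± 0.20 (SE). Other S1P genes were tested for 9 of 14, with differences from -0.20 to 0.22. The lipid transporter gene Abca1 had the smallest unadjusted p of these, with a difference of 0.22 ± 0.16 (SE). The S1P exporter genes Spns2 and Mfsd2b differed by -0.20 ± 0.27 (SE) and 0.19 ± 0.27 (SE). The receptor genes S1pr4 and S1pr5 differed by -0.12 ± 0.20 (SE) and -0.02 ± 0.14 (SE). S1pr3, below the signal filter and so not tested, differed by 0.42 ± 0.22 (SE) with overlapping groups.

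**Figure D4:**
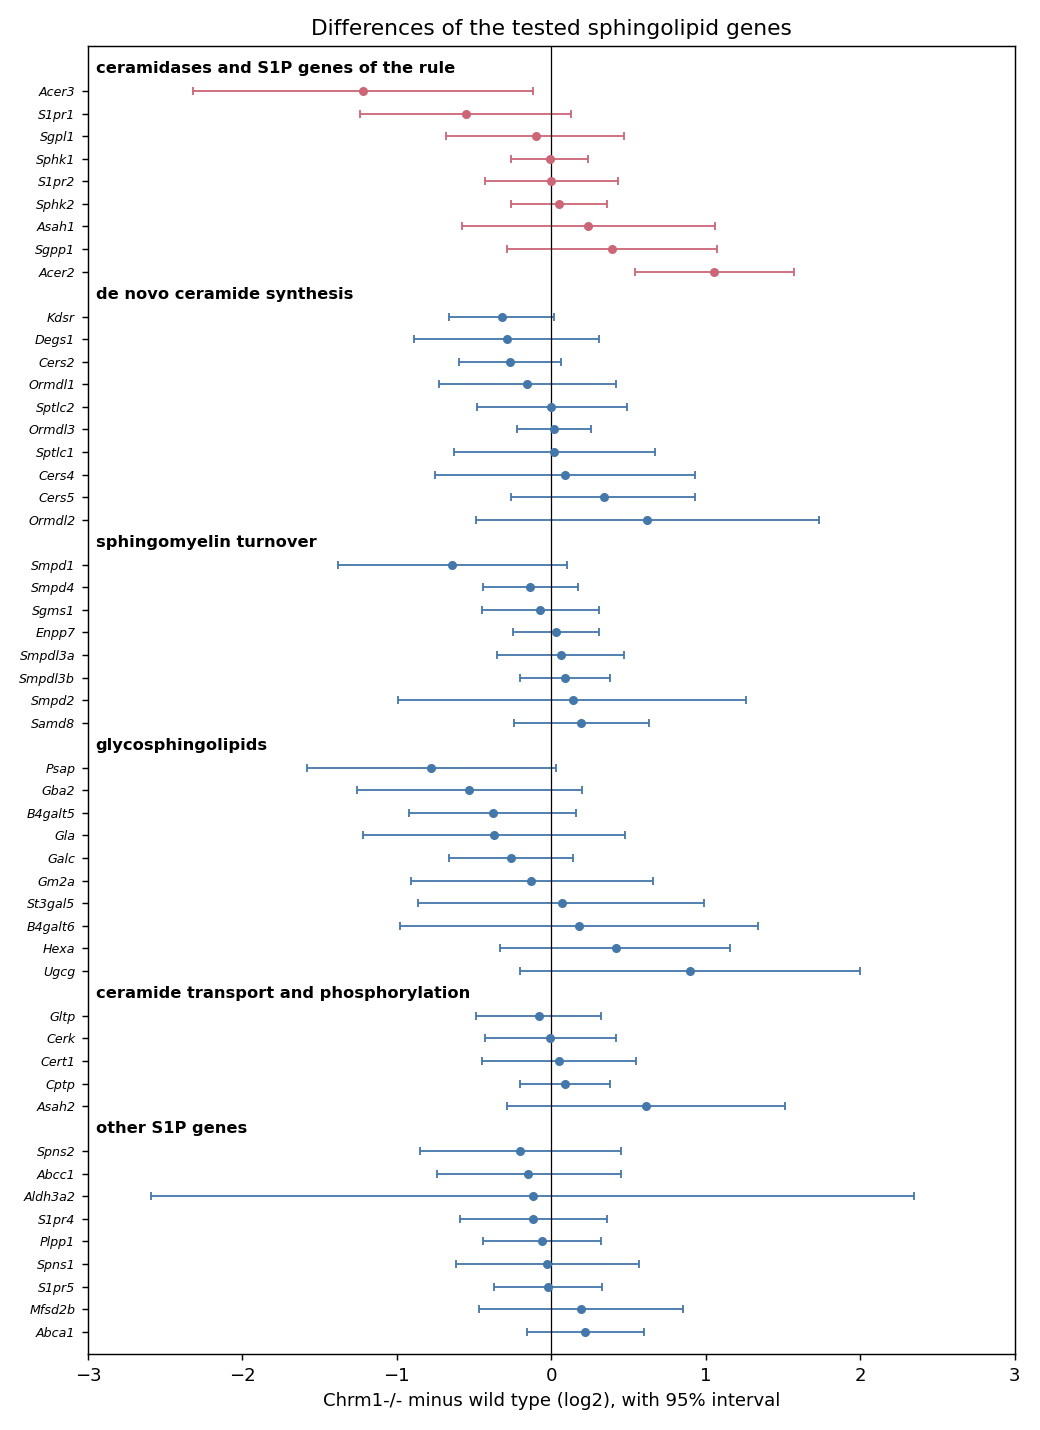
Chrm1-/- minus wild type (log2) with 95% intervals from limma for the 9 tested genes of the list (red) and the 42 tested genes of the wider pathway (blue), grouped by function. Of the red intervals those of Acer2 and Acer3 leave out 0, and each of the blue intervals includes it.

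Whether Acer2 responds to glucocorticoids was not tested. The genes whose profile over the 6 arrays was most like that of Acer2 were found by the root mean square difference between profiles centred on their own means, among the 10160 tested genes left after predicted genes, unnamed clones, receptor and antibody segments and small RNAs were set aside. They were Lrmda at 0.173, Tmem253 at 0.209, Ube2n at 0.229, Ska3 at 0.263 and Mtss1 at 0.263, all in log2 units. Lrmda read 6.87, 6.59 and 7.14 in wild type and 7.57, 7.97 and 7.46 in Chrm1-/-. Ube2n, a ubiquitin-conjugating enzyme gene, read 9.22, 9.01 and 9.05 and then 9.94, 10.28 and 9.85. The knockout arrays of these 2 lay above their wild type arrays, which follows from their likeness to Acer2. In Ska3 the groups overlapped, at 7.18 in wild type replicate 3 and 7.06 in Chrm1-/- replicate 3.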

How the data were processed

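RNA of sorted HSCs was measured on 6 Affymetrix mouse gene arrays, 3 wild type and 3 Chrm1-/-, grouped by the labels' titles. The authors ran Affymetrix's own analysis software, per the series design text. Its version and its way of summarizing and normalizing are not stated there. The deposited values ran from 3.02 to 13.67 with no scale named, so their range is the ground for treating them as log2 signals. They were used as they stand.

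Of 41345 rows, 23521 had 1 symbol in the platform annotation; 1814 with several and 16010 with none were left out. The row of highest mean stood for each of 22180 genes, and 11094 with a mean of at least 6.77 were tested in limma 3.58.1 (R 4.3.3) with two-sided p-values, adjusted by Benjamini and Hochberg's method. Acer1 and S1pr3, below the filter, took their errors from the fit with no filter. Fits with no filter also gave the members' differences and errors with an array left out, while their p-values came from filtered fits. The errors of a gene's other row, and of the Smpdl3a row used, came from a fit over all rows with 1 symbol. Of 62 pathway genes 57 were found. The test was tested on simulated data. Python 3.11.15 joined the tables, and the plots used matplotlib 3.10.9.

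The members, the pathway list, the marker lists, the motifs and the rule for naming genes were chosen with earlier results of these data known. Named are the 10 members, in each pathway group genes of unadjusted p under 0.05 or else that of smallest p, Chrm1, Kit, Cd34, Procr, other cells' markers of unadjusted p under 0.05 and the 5 profiles most like Acer2; other names were chosen after their values were seen. Alternatives covered the filter, quantile normalization, median centring, the mean of a gene's rows, array weights, moderation, a block for the replicate number, and each array left out.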

Additional observations from a re-analysis of the deposited data

How the results depend on the processing

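The Acer2 difference, which chose the list, ran from 0.91 to 1.23 over the 15 alternatives. As its groups do not overlap, no left-out array could turn its sign. Changes to the filter, the prior or the moderation, and the replicate block, could not move it from 1.05. The mean of rows could not either, since Acer2 had a single row. The unadjusted limma p of Acer3, 0.0345 in the report, was 0.0909 with no moderation, 0.0518 with the replicate block and up to 0.112 without 1 array, that being Chrm1-/- replicate 1. That of S1pr1, 0.0959 in the report, was 0.034 with array weights and 0.00737 without wild type replicate 3. The number of the 10 members with a higher mean in Chrm1-/-, 4 in the report, ran from 4 to 7 on leaving out 1 array, with 7 without Chrm1-/- replicate 3. Sgpp1 moved from 0.39 to -0.02 with the mean of its rows. Pathway genes at an unadjusted p under 0.05 in limma, 0 in the report, numbered 1 with no filter, 1 with quantile normalization and 1 with median centring, 2 with array weights, 2 with the replicate block and 1 to 3 on leaving out 1 array, 3 without wild type replicate 3 (Kdsr, Cers2 and Galc). The share of all tested genes at that unadjusted level ran from 2.28% with no moderation to 4.71% without wild type replicate 3. No pathway gene passed the adjusted threshold under any of the 15. Over all genes 0 passed, but 1 with no moderation (Apmap), and 0 to 1 without 1 array (Gdpd3 or Snord49a). Genes at an unadjusted p under 0.05 went from 332 to 567 with no filter and 169 past the 75th percentile, by the number tested, and from 335 to 522 without 1 array, the most without wild type replicate 3. The replicate block gave 396 such genes. Same-numbered arrays had correlations of deviations of -0.033, 0.043 and -0.015, and differently numbered arrays from -0.048 to 0.063. These values show no pairing by number, but with 3 arrays per group they cannot decide whether the arrays were paired.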

Other observations

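Equal values recurred across arrays in this table, which is rounded to 2 decimals. Of the 11094 tested genes, 1081 (9.74%) had the same value on at least 3 of the 6 arrays and 241 (2.17%) on at least 4. Sphk2 read 7.03 on 3 arrays. Of the wider pathway, Samd8, a sphingomyelin synthase-related gene, read 7.58 on 4 arrays and Smpdl3b, a phosphodiesterase related to acid sphingomyelinase, 7.52 on 4.

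Of the 4 pathway genes with 2 array rows, all kept overlapping groups in the gap between their rows. For Smpdl3a, a phosphodiesterase related to acid sphingomyelinase, the row used differed by 0.06 ± 0.16 (SE) and the other row by -0.46 ± 0.20 (SE). Aldh3a2, the fatty aldehyde dehydrogenase that acts after the S1P lyase, read 10.12, 9.17 and 6.66 in wild type and 9.28, 7.09 and 9.22 in Chrm1-/- in the row used, while its other row lay between 8.02 and 8.51 on all 6 arrays.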
